A study of Mus musculus with 8 samples.

Results

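Hepatic stellate cells are the pericytes of the liver sinusoid. In a healthy liver they store vitamin A as retinyl ester, and in chronic injury they turn into contractile, matrix-secreting myofibroblasts, which are the main source of scar collagen in fatty liver disease. The 10 genes followed here mark these cells at rest or after activation: Lrat, Reln, Pdgfrb, Pdgfra, Des, Vim, Acta2, Tagln, Dcn and Lum. They were chosen by name, with earlier results of these data known. Each symbol matched 1 Ensembl gene, so the set holds 10 of the 46517 genes counted. None of them differed detectably between genotypes. All 10 overlapped between MøFoxO1-KO mice and WT littermates, while 9.71% of the 13278 tested genes did not overlap. An unadjusted P under 0.05 was reached by 0 of 10, beside 16.7% of the tested genes. In a set of 10 genes, counts of 0 do not stand apart from these shares. For 7 of them the whole 95% interval of the difference lay within 1 log2 unit of 0. The intervals of Acta2, Pdgfrb and Pdgfra reached beyond it.

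MøFoxO1-KO mice carry floxed FoxO1 alleles together with a Cre transgene driven by the lysozyme 2 promoter (FoxO1loxP/loxP-Lyz2-Cre), and their WT littermates carry the same floxed alleles without Cre. Both groups were male mice of the C57BL/6 background. They started on a NASH-inducing diet at 6 weeks of age, remained on it for 25 weeks, and were killed at 31 weeks of age after a fast of 16 hours, with 4 mice in each group. Lyz2 drives Cre in myeloid cells, and the comparison asks whether stellate and myofibroblast transcripts differ when FoxO1 is missing from myeloid cells. RNA came from whole liver, in which fewer cells of a type and less RNA per cell cannot be told apart.

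Between 15253218 and 18025481 reads per mouse were assigned to genes, and mitochondrial genes took between 4.16 and 6.33% of them. The hepatocyte marker Alb averaged 860656 normalized counts in WT and 983709 in MøFoxO1-KO livers. Raw Foxo1 counts ran from 328 to 467 in WT livers and from 253 to 448 in MøFoxO1-KO livers. The log2 fold change was -0.17 (adjusted P = 0.686, edgeR with Benjamini-Hochberg), which does not check the myeloid deletion because other liver cells also express it. A normalized count is the count of a mouse scaled by edgeR's TMM method to the mean library of the 8 mice. Fold changes are MøFoxO1-KO minus WT on the log2 scale, with P values adjusted over the 13278 genes that passed a filter on low counts, and calls required both an adjusted P below 0.05 and a fold change beyond 1.5 log2 units in either direction. All 10 genes passed the filter.

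Of the 13278 tested genes, 0.188% were called, 0.294% had an adjusted P under 0.05, 16.7% had an unadjusted P under 0.05 (8.06% being lower in MøFoxO1-KO livers), and 9.71% did not overlap between the groups. Against this background, the stellate and myofibroblast genes gave 0 calls, 0 unadjusted P values under 0.05 and 0 genes without overlap. DESeq2 and limma-voom also called 0 of the 10. With 4 mice against 4, the smallest P of the exact two-sided permutation test is 0.0286, and the 10 permutation P values lay between 0.143 and 0.914. Under TMM scaling, 6 genes had a positive and 4 a negative log2 fold change, beside 51.7% of all tested genes with a negative value. The median over the 10 genes was 0.09, beside -0.01 over all tested genes. WT replicate 23 was the lowest of the 8 mice for 6 of the 10 genes. Without that mouse 3 genes were higher and 7 lower, and the median was -0.10.

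**Figure D1:**
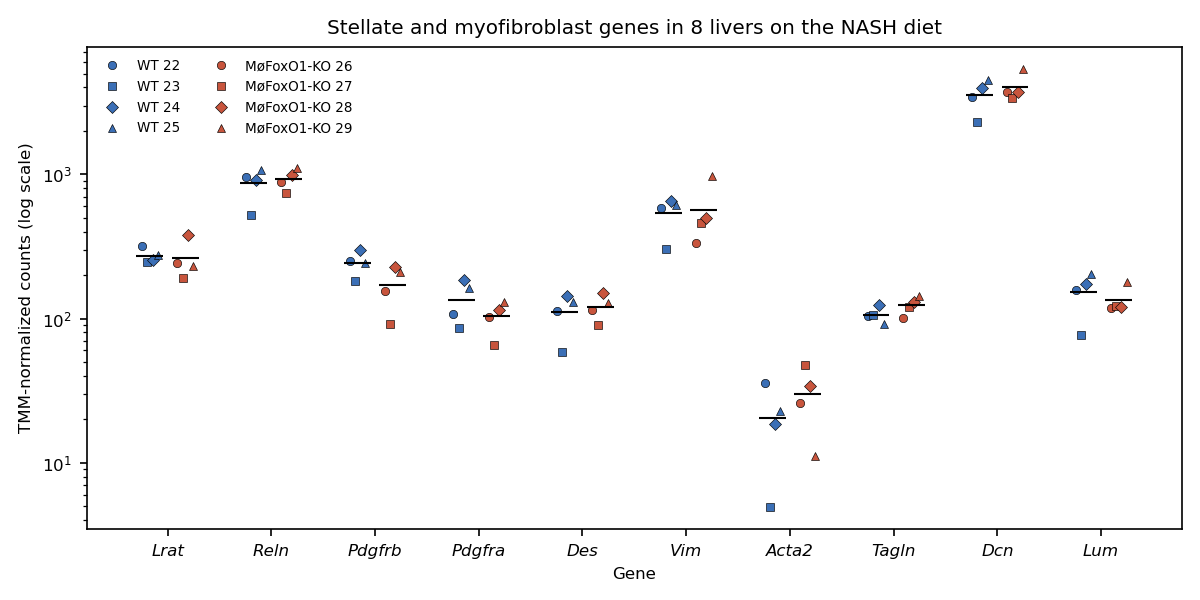
TMM-normalized counts (log scale) of the 10 stellate and myofibroblast genes in each of the 4 WT (blue) and 4 MøFoxO1-KO (red) livers, with 1 symbol per mouse and a black line at the group mean. The groups overlap for every gene, Dcn lies far above the others, and Acta2 is the lowest and the most scattered, from 4.92 in WT replicate 23 to 47.8 in MøFoxO1-KO replicate 27.

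Lrat and Reln are markers of stellate cells, and Lrat marks their quiescent state. Lrat (ENSMUSG00000028003, chromosome 3 of GRCm38 from 82892579 to 82903973, minus strand) encodes lecithin retinol acyltransferase, the enzyme that esterifies vitamin A for storage. WT replicates 22 to 25 had 318, 245, 254 and 274 normalized Lrat counts, and MøFoxO1-KO replicates 26 to 29 had 244, 189.9, 379 and 231. Both the lowest and the highest value came from MøFoxO1-KO livers, with all WT mice in between. The means of 273 ± 32.8 in WT and 261 ± 81.8 in MøFoxO1-KO livers (SD, n = 4 each) gave a log2 fold change of -0.06 with a 95% interval from -0.52 to 0.39 (edgeR, Benjamini-Hochberg adjusted P = 0.908). This value turned positive when WT replicate 22 was left out (0.02), as it did when MøFoxO1-KO replicate 27 was (0.07).

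Reln (ENSMUSG00000042453, chromosome 5 from 21884454 to 22344702, minus strand) encodes the secreted glycoprotein reelin, which in the liver is made mainly by stellate cells. Normalized Reln counts were 956, 523, 918 and 1064 in WT replicates 22 to 25. In MøFoxO1-KO replicates 26 to 29 they were 881, 743, 993 and 1114. WT replicate 23 stood well below the other WT mice, and the remaining 7 mice lay between 743 and 1114. The log2 fold change was 0.11 (95% interval -0.36 to 0.58, edgeR, Benjamini-Hochberg adjusted P = 0.837) and became -0.07 without WT replicate 23.

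Pdgfrb and Pdgfra encode the receptors for platelet-derived growth factors, the chief mitogens of stellate cells. Pdgfrb (ENSMUSG00000024620, chromosome 18 from 61045150 to 61085061, plus strand) came closest of the 10 genes to separating the genotypes. WT replicates 22 to 25 had 252, 182, 298 and 242 normalized Pdgfrb counts, and MøFoxO1-KO replicates 26 to 29 had 155, 92.0, 227 and 212. MøFoxO1-KO replicates 26 and 27 lay below every WT mouse, whereas replicates 28 and 29 lay within the WT range. Pdgfrb averaged 243 ± 47.8 in WT and 171 ± 61.3 in MøFoxO1-KO livers (SD, n = 4 each). The difference was -0.50 ± 0.26 log2 units (SE), with a 95% interval from -1.09 to 0.09. Pdgfrb did not pass the test (edgeR, Benjamini-Hochberg adjusted P = 0.373; exact permutation test, P = 0.143), and leaving out single mice kept the fold change between -0.66 and -0.29.

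Pdgfra (ENSMUSG00000029231, chromosome 5 from 75152292 to 75198215, plus strand) had the second most negative fold change. Its normalized counts were 107, 86.5, 184 and 163 in WT replicates 22 to 25 and 103, 65.7, 115 and 131 in MøFoxO1-KO replicates 26 to 29. Again MøFoxO1-KO replicate 27 was the lowest of all mice and WT replicate 24 the highest. The log2 fold change of -0.38 (95% interval -1.01 to 0.25) did not pass the test (edgeR, Benjamini-Hochberg adjusted P = 0.541), and it was -0.20 with WT replicate 24 left out and -0.21 with MøFoxO1-KO replicate 27 left out. Per kilobase of exon, each mouse held more Pdgfrb than Pdgfra. Their ratio ranged from 2.71 to 4.32 in WT and from 2.56 to 3.61 in MøFoxO1-KO livers, so the balance of the receptors overlapped between genotypes as well.

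Des and Vim encode intermediate filament proteins. Desmin is the classical marker of rodent stellate cells, and vimentin is shared by mesenchymal, endothelial and blood cells. Des (ENSMUSG00000026208, chromosome 1 from 75360329 to 75368579, plus strand) had 112, 59.0, 143 and 130.4 normalized counts in WT replicates 22 to 25 and 115, 89.6, 151 and 128 in MøFoxO1-KO replicates 26 to 29. WT replicate 23 was once more the lowest mouse, and the other WT mice lay within the range of the MøFoxO1-KO mice. Des gave a log2 fold change of 0.12 (95% interval -0.49 to 0.73, edgeR, Benjamini-Hochberg adjusted P = 0.862), or -0.09 without WT replicate 23.

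Vim (ENSMUSG00000026728, chromosome 2 from 13573927 to 13582826, plus strand) had nearly equal means, 540.0 ± 160.4 in WT and 567 ± 279 in MøFoxO1-KO livers (SD, n = 4 each), but not the same spread. WT replicates 22 to 25 had 582, 304, 657 and 617 normalized Vim counts, whereas MøFoxO1-KO replicates 26 to 29 had 335, 462, 498 and 973. MøFoxO1-KO replicate 29 alone exceeded every WT mouse, and the other MøFoxO1-KO mice lay below WT replicates 22, 24 and 25. The log2 fold change of 0.07 (95% interval -0.66 to 0.80, edgeR, Benjamini-Hochberg adjusted P = 0.938) changed to -0.32 without MøFoxO1-KO replicate 29 and to -0.13 without WT replicate 23. MøFoxO1-KO replicate 29 also had the highest summed level of 7 macrophage markers, 11616 normalized counts against 2775 to 6619 in the other mice, and the part of macrophages in its Vim level was not tested.

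**Figure D2:**
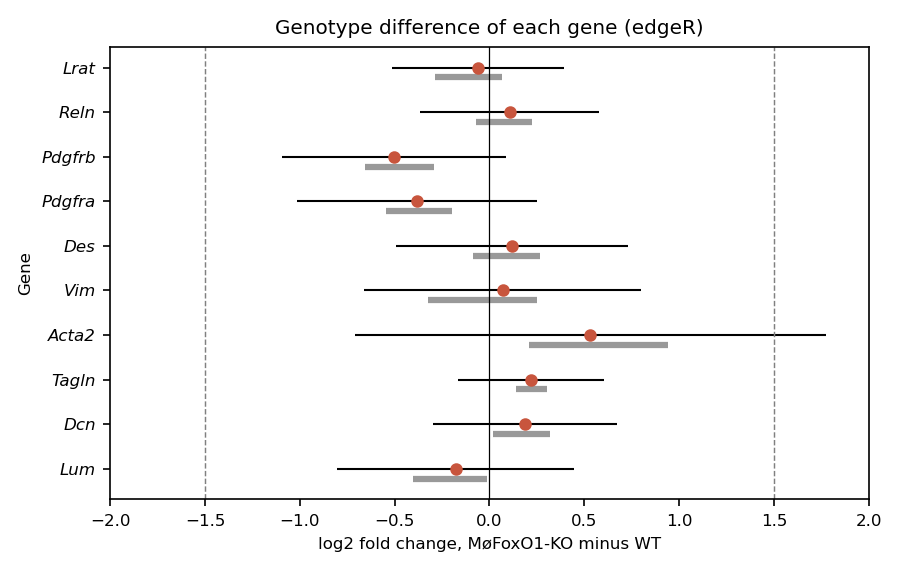
Log2 fold change (MøFoxO1-KO minus WT) of each gene by edgeR (red points) with its 95% interval (black lines) and the range of the values obtained when each of the 8 mice was left out in turn (grey bars). Dashed lines mark the limit of 1.5 in either direction. Every interval includes 0, and the interval of Acta2 is the widest. In every fit Pdgfrb, Pdgfra and Lum lie on the negative side, and Acta2, Tagln and Dcn on the positive side.

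Acta2 and Tagln encode smooth muscle α-actin and transgelin (SM22α), proteins of the contractile apparatus that stellate cells acquire when they become myofibroblasts. Both are targets of serum response factor, which binds the CArG box. Acta2 (ENSMUSG00000035783, chromosome 19 from 34241090 to 34255336, minus strand) was counted 38, 5, 20 and 23 times in WT replicates 22 to 25. In MøFoxO1-KO replicates 26 to 29 it was counted 27, 40, 36 and 10 times. After normalization these were 35.6, 4.92, 18.5 and 22.9 in WT and 25.9, 47.8, 34.2 and 11.2 in MøFoxO1-KO livers. WT replicate 23 and MøFoxO1-KO replicate 29 were the low mice of their groups, and neither genotype stood above the other. Counting error alone gives the 5 counts of WT replicate 23 a 95% Poisson interval from 1.62 to 11.7, and the 40 counts of MøFoxO1-KO replicate 27 one from 28.6 to 54.5.

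The mean of Acta2 was 20.5 ± 12.7 in WT and 29.8 ± 15.3 in MøFoxO1-KO livers (SD, n = 4 each), and the difference was 0.53 ± 0.56 log2 units (SE). Acta2 did not pass the test (edgeR, Benjamini-Hochberg adjusted P = 0.677; exact permutation test, P = 0.371), and its 95% interval reached from -0.71 to 1.78. A lower as well as a higher Acta2 level in MøFoxO1-KO livers is therefore within the error at this depth. Single mice moved the Acta2 value both ways. With WT replicate 23 left out it was 0.21, and with MøFoxO1-KO replicate 27 left out 0.22. Leaving out WT replicate 22 gave 0.94, leaving out MøFoxO1-KO replicate 29 gave 0.80, and the value was positive in every fit run. The exons on which the authors counted Acta2 reads cover 81.1% of its exon bases in GENCODE M21. Whether the remaining bases are expressed in these livers was not examined.

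The promoter of Acta2 is shown because its elements are those through which this gene is known to respond to serum response factor. The 250 bases before the RefSeq start site of Acta2 (GRCm38.p6, chr19:34255374-34255623, minus strand) follow, with capitals marking each stretch that matches the CArG box at all but 1 position.
Acta2: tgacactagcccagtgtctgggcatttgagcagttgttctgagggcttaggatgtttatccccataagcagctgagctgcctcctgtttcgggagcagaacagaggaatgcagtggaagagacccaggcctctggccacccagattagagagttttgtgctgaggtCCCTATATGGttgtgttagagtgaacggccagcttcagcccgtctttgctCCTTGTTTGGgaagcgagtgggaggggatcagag
These stretches begin 84 and 34 bases before the start site. The CArG box reads alike on both strands, and no other motif searched overlaps them. Of 32851 RefSeq promoter windows of this length, 2.69% held at least 2 such stretches and 1.47% an exact CArG box, which the Acta2 window did not hold. Among the other 5 genes of the set with a promoter in the RefSeq table (Des, Vim, Lrat, Reln and Pdgfra), Lrat alone held such a stretch.

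Tagln (ENSMUSG00000032085, chromosome 9 from 45929628 to 45936058, minus strand) was the steadiest gene of the set. WT replicates 22 to 25 had 105, 105, 124 and 91.6 normalized Tagln counts, and MøFoxO1-KO replicates 26 to 29 had 101, 121, 131 and 143. The highest and the lowest mouse differed 1.56-fold, against 9.72-fold for Acta2, whose 5 to 40 counts carry wide Poisson intervals. Log2 CPM values of Tagln and Acta2 had r = -0.02 over the 8 mice. With so few Acta2 counts, this value does not settle whether the genes vary together. MøFoxO1-KO replicates 28 and 29 exceeded all WT mice for Tagln. Its log2 fold change of 0.22 had a 95% interval from -0.17 to 0.60 (edgeR, Benjamini-Hochberg adjusted P = 0.568). Of its exon bases, 65 are shared with Pcsk7 on the opposite strand, and the strand setting of the counting is not given in the sources used here.

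Dcn and Lum encode decorin and lumican, small leucine-rich proteoglycans that bind collagen fibrils. Dcn (ENSMUSG00000019929, chromosome 10 from 97479500 to 97518162, plus strand) was by far the most abundant of the 10 transcripts. Its normalized counts were 3435, 2307, 3994 and 4484 in WT replicates 22 to 25 and 3716, 3364, 3729.7 and 5381 in MøFoxO1-KO replicates 26 to 29. WT replicate 23 was the lowest and MøFoxO1-KO replicate 29 the highest, with the other 6 mice between 3364 and 4484. At 3555 ± 936 in WT and 4048 ± 905 in MøFoxO1-KO livers (SD, n = 4 each), the log2 fold change was 0.19 with a 95% interval from -0.30 to 0.67 (edgeR, Benjamini-Hochberg adjusted P = 0.713). Leaving out WT replicate 23 brought it to 0.027, leaving out MøFoxO1-KO replicate 29 to 0.019, and leaving out WT replicate 25 to 0.32.

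Lum (ENSMUSG00000036446, chromosome 10 from 97565501 to 97572703, plus strand) had 158, 76.7, 174 and 203 normalized counts in WT replicates 22 to 25. MøFoxO1-KO replicates 26 to 29 had 119, 122, 121 and 180.2. Replicates 26 to 28 were nearly equal and replicate 29 stood apart above them, inside the WT range. For Lum the log2 fold change was -0.18 (95% interval -0.80 to 0.45, edgeR, Benjamini-Hochberg adjusted P = 0.79). Leaving out WT replicate 23 gave -0.40, leaving out MøFoxO1-KO replicate 29 gave -0.35, and leaving out WT replicate 25 gave -0.015. Per kilobase of exon, Dcn exceeded Lum 21.6 to 29.9 times in WT livers and 27.5 to 31.1 times in MøFoxO1-KO livers. WT replicate 23, with the highest WT ratio, lay inside the range of the MøFoxO1-KO mice, and the other 3 WT mice lay below it. The counted exons hold 33.2% of the exon bases of Dcn in GENCODE M21 and 84.8% of those of Lum, which may bear on the comparison of their levels.

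In both groups the mouse with the most Dcn and Lum was also the mouse with the highest summed level of 5 mesothelial markers, the cells that cover the liver surface. WT replicates 22 to 25 had mesothelial sums of 42.2, 128, 233 and 529.6 normalized counts, and MøFoxO1-KO replicates 26 to 29 had 13.4, 22.7, 165 and 406. The defining markers Msln and Upk3b were at 0 counts in WT replicate 22 and MøFoxO1-KO replicate 26. The part of these cells in the Dcn and Lum levels was not tested. WT replicate 23, lowest for 6 of the 10 genes, had the lowest sum of 7 endothelial markers, 2065 normalized counts against 3765 to 5720 in the other mice, and also the lowest macrophage sum. Its part in the fold changes is shown by the fits without it, given beside Reln, Des, Vim, Acta2, Dcn and Lum.

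**Figure D3:**
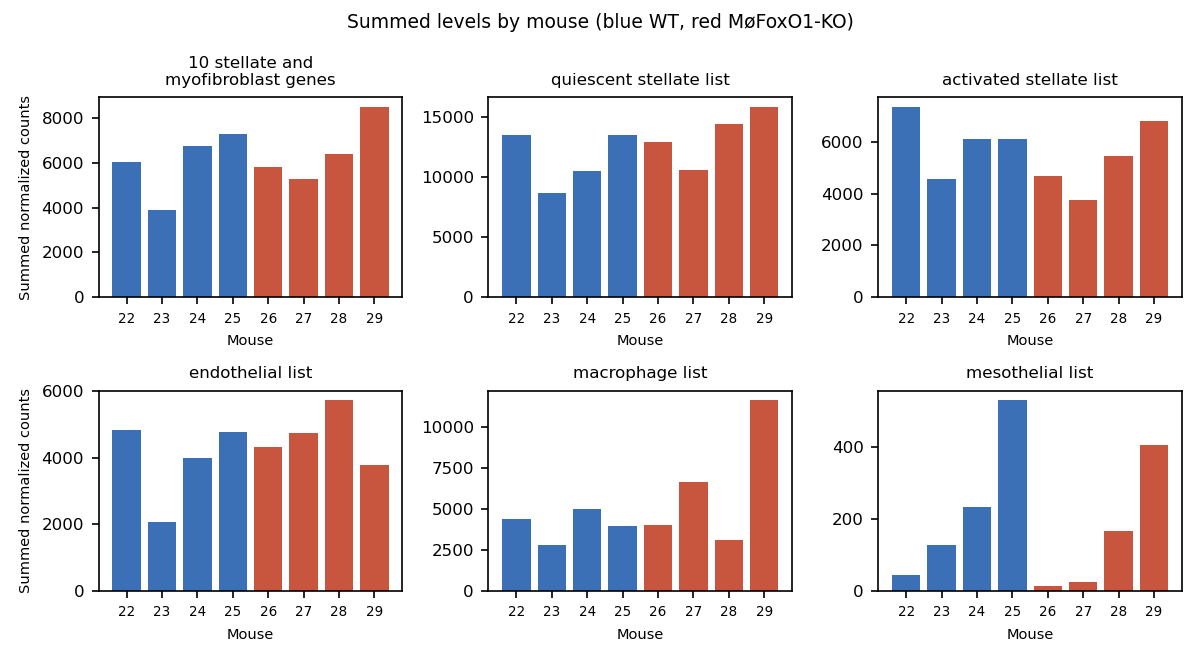
Summed TMM-normalized counts of gene lists in each mouse, with WT in blue (mice 22 to 25) and MøFoxO1-KO in red (mice 26 to 29), on axes that start at 0. WT replicate 23 is low for the 10 stellate and myofibroblast genes (3893) and for endothelial markers (2065), and MøFoxO1-KO replicate 29 is high for the 10 genes (8503) and for macrophage markers (11616). Most of the 10-gene sum is Dcn (5381 in MøFoxO1-KO replicate 29). That mouse was the highest of 8 for 4 of the genes but the 2nd lowest for Acta2 and Lrat.

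Levels of different genes were compared as RPKM, averaged over the 8 mice. Here RPKM is the count of a gene divided by its counted exon length and by the TMM-scaled library size. Dcn came first at 111 ± 26.1 (SD, n = 8), with every mouse above the range of the next gene. Vim (7.11 ± 2.72), Tagln (4.42 ± 0.668), Lum (4.24 ± 1.22), Lrat (3.04 ± 0.661), Reln and Pdgfrb (2.31 each, SD 0.487 and 0.710), Des (1.88 ± 0.485), Acta2 (0.859 ± 0.476) and Pdgfra (0.725 ± 0.237) followed. Each of these 9 overlapped with its neighbour in the order, so only the place of Dcn was clear of the spread. By this measure Dcn lay at the 96.0th percentile of the tested genes and Acta2 at the 21.6th. The ratio of Acta2 to Lrat, an activation marker set against a quiescence marker, ran from 0.0603 to 0.336 in WT livers and from 0.146 to 0.756 in MøFoxO1-KO livers. MøFoxO1-KO replicate 27, with the most Acta2 and the least Lrat of all mice, had the highest value, and the other 3 MøFoxO1-KO mice lay within the WT range.

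The genes tended to be high or low in the same livers. Over the 8 mice, log2 CPM values of the 45 pairs had a median Pearson r of 0.45, and 40 pairs were positive, while the median r of each gene with all tested genes lay between -0.02 and 0.02. These correlations are descriptive, since the pairs share the same libraries and the same low mouse, WT replicate 23. With each genotype centred on its own mean, the median was 0.52. Reln with Dcn (r = 0.92), Des with Reln (0.92), Reln with Lum (0.87), Dcn with Lum (0.87) and Pdgfrb with Pdgfra (0.86) were the closest pairs. Tagln, Acta2 and Lrat were the least correlated with the rest, with a median r to the other members of the set of 0.07, 0.17 and 0.17. Acta2 and Tagln had r = -0.02 with each other, and Acta2 had r = -0.26 with Pdgfrb, the lowest value of all pairs.

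**Figure D4:**
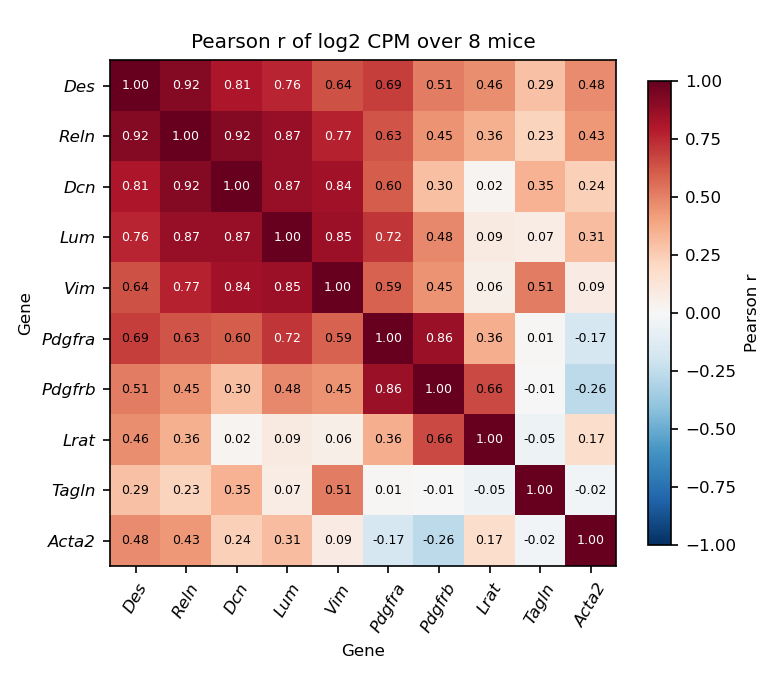
Pearson r of log2 CPM between each pair of the 10 genes over the 8 mice, coloured from -1 (blue) to 1 (red). Des, Reln, Dcn, Lum and Vim form a block with r from 0.64 to 0.92, and the rows of Tagln, Acta2 and Lrat are paler.

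Des and Reln were the closest pair for which both promoters were in the RefSeq table, and their promoters are printed for that reason. The 250 bases before each start site (GRCm38.p6, chr1:75360042-75360291, plus strand, for Des and chr5:22344706-22344955, minus strand, for Reln) are given with the GC box GGGCGG, or its reverse complement, in capitals.
Des: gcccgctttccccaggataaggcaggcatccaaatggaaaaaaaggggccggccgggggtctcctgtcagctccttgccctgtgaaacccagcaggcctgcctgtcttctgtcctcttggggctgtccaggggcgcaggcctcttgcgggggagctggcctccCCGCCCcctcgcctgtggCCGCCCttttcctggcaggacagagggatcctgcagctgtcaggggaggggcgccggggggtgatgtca
Reln: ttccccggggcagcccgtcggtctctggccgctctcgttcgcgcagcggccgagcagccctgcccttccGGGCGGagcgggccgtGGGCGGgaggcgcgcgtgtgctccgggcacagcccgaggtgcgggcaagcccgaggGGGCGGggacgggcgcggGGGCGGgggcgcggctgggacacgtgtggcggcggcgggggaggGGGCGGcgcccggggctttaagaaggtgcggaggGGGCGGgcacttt
Reln held 6 GC boxes and Des held 2, while 0.886% of all promoter windows held at least 6 and 16.7% at least 2. G and C made up 80.0% of the Reln window and 67.2% of the Des window, beside a median of 52.4% over all windows. Neither window held TATAAA, which 12.4% of all windows held, or a CArG match.

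For each of the 10 genes, the 3 other tested genes with the highest r over the 8 mice were taken as the most similar patterns. The highest values were 0.997 for Acta2 with Kti12, 0.99 for Vim with Nr4a1, 0.99 for Des with Ldb1 and 0.98 for Reln with Cenpx. Trerf1 was among the closest genes of both Reln (0.97) and Dcn (0.97), and Dcn was further accompanied by Itpr3 (0.96) and Kcnj8 (0.96), the latter a potassium channel subunit of pericytes. Pdgfrb was followed by Pgap3 (0.96), Fstl1 (0.96) and Dennd3 (0.96). None of these genes was called between genotypes. These values are descriptive, being the highest among 13278 genes over 8 mice.

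The wider stellate repertoire was described by lists around the 10 genes, with counts and medians in place of a test. Markers of quiescent stellate cells other than the 10 genes comprised 24 genes, all tested. In MøFoxO1-KO livers 15 of them were higher and 9 lower. None was called, and the median fold change was 0.17 log2 units. Hhip, a Hedgehog antagonist, had an unadjusted P under 0.05. It averaged 48.6 ± 11.2 normalized counts in MøFoxO1-KO livers (SD, n = 4), and its WT values lay between 9.37 and 44.8, so that the groups overlapped (log2 fold change 1.14, edgeR with Benjamini-Hochberg, adjusted P = 0.262). Leaving out single mice moved the median of this list between 0.02 and 0.31.

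Markers of activated stellate cells and myofibroblasts other than the 10 genes behaved differently in sign. Of 21 such genes 16 were tested, 3 higher and 13 lower. None was called, and the median fold change was -0.33 log2 units, ranging from -0.52 to -0.21 when single mice were left out. An unadjusted P under 0.05 was found for 4 of the 16, all lower, beside 8.06% of all tested genes: the fibrillar collagen genes Col1a1 (log2 fold change -1.28), Col1a2 (-0.76) and Col3a1 (-0.76), and Col15a1 (-0.71). Their adjusted P values lay between 0.193 and 0.264 (edgeR, Benjamini-Hochberg), so none was called. In contrast, Postn (0.55), Col5a2 (0.53) and Sparc (0.09) had positive fold changes. Genes that did not pass the filter included Lox, Fap, Cdh11 and Timp1. Of these, Timp1, an inhibitor of matrix metalloproteinases, was counted 13, 9, 46 and 14 times in WT replicates 22 to 25. Its MøFoxO1-KO counts in replicates 26 to 29 were 2, 1, 5 and 6. Every MøFoxO1-KO mouse was below every WT mouse for Timp1 and Col1a1.

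**Figure D5:**
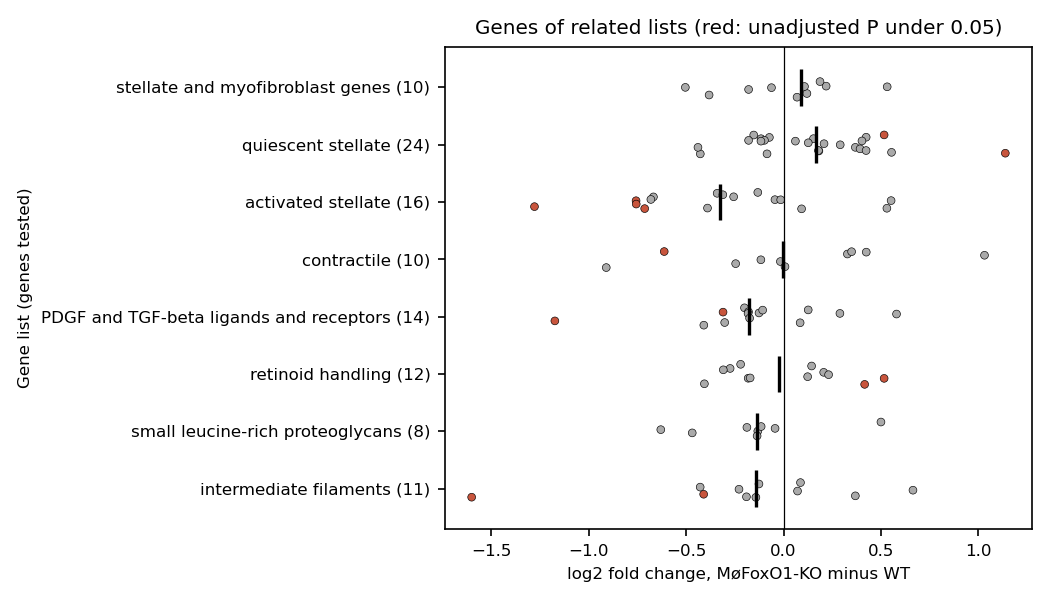
Log2 fold change (MøFoxO1-KO minus WT) of each tested gene in 8 lists, with a black line at the median of the list and red points at an unadjusted P under 0.05 (edgeR). The 10 stellate and myofibroblast genes (median 0.09) and the quiescent list (0.17) lie around or just above 0, and the activated list (-0.33) lies below it.

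Contractile genes were divided. Of 15 partners of Acta2 and Tagln, 10 were tested, 5 higher and 5 lower, and their median fold change was -0.00 log2 units, ranging from -0.11 (MøFoxO1-KO replicate 26 left out) to 0.13 (WT replicate 22 left out). Tpm1, a tropomyosin that lines actin filaments in many cell types, had 627 ± 102 normalized counts in WT and 410.2 ± 22.8 in MøFoxO1-KO livers (SD, n = 4 each). Its groups did not overlap, and its log2 fold change of -0.61 had an adjusted P of 0.0968 (edgeR, Benjamini-Hochberg), above the threshold. Defining genes of vascular smooth muscle were near 0: Actg2 had at most 4 counts per mouse, Cnn1 at most 7, Sncg at most 3 and Lmod1 at most 9, whereas Myh11 had between 4 and 40. Cnn1, which encodes calponin, was counted 2, 0, 1 and 1 times in WT replicates 22 to 25, and its counts in MøFoxO1-KO replicates 26 to 29 were 7, 6, 4 and 3. Every MøFoxO1-KO mouse was above every WT mouse for Cnn1, the opposite direction to Timp1, and both genes were below the filter and not tested. Among the other actins, Acta1, Actc1 and Actg2, which encode proteins nearly identical to that of Acta2, had at most 4 counts each, and the ubiquitous Actb and Actg1 averaged 10922 and 1826 normalized counts in WT livers. How reads that match several actin genes were counted is not given in the sources used here, which leaves the low Acta2 counts uncertain.

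Signals that act on stellate cells were examined next. Among 14 ligands, receptors and SMAD proteins of the PDGF and TGF-β pathways, 4 were higher and 10 lower, with a median of -0.18 and 0 calls. Leaving out MøFoxO1-KO replicate 28 gave a median of -0.089, and leaving out WT replicate 23 one of -0.11. Tgfb2, a TGF-β ligand, had 19.4 ± 4.03 normalized counts in WT and 8.64 ± 4.04 in MøFoxO1-KO livers without overlap (-1.17 log2 units, edgeR, Benjamini-Hochberg adjusted P = 0.201), and Tgfbr1, a type I receptor, had 421 ± 63.4 and 339 ± 27.7 (-0.31, adjusted P = 0.271 by edgeR with Benjamini-Hochberg). Tgfb1, the principal profibrotic ligand, had a positive log2 fold change of 0.58 (edgeR, Benjamini-Hochberg adjusted P = 0.356). The PDGF ligand genes Pdgfa (-0.41), Pdgfb (0.29), Pdgfc (-0.20) and Pdgfd (0.09) went in both directions.

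Genes of retinoid handling around Lrat comprised 16 genes, of which 12 were tested, 6 higher and 6 lower, with a median of -0.02 that became -0.19 when MøFoxO1-KO replicate 26 was left out, and 0.011 when replicate 27 was. Among those with an unadjusted P under 0.05 was Rbp4, the plasma carrier of retinol that hepatocytes secrete, which averaged 62022 ± 9446 normalized counts in WT and 82780 ± 13002 in MøFoxO1-KO livers (SD, n = 4 each; 0.42 log2 units, edgeR, Benjamini-Hochberg adjusted P = 0.265). Of 11 other small leucine-rich proteoglycan genes, 8 were tested, 1 higher (Omd, chosen after its value was seen, 0.50) and 7 lower, with a median of -0.13 and 0 unadjusted P values under 0.05. That median ran from -0.27 (WT replicate 23 left out) to 0.0081 (MøFoxO1-KO replicate 27 left out). Of 11 other intermediate filament genes, all tested, 4 were higher and 7 lower, with a median of -0.14 that came to 0.0088 when MøFoxO1-KO replicate 26 was left out. The unadjusted P values under 0.05 belonged to the keratin genes Krt8 (log2 fold change -0.41) and Krt23 (-1.60), which are epithelial (edgeR, Benjamini-Hochberg adjusted P = 0.212 and 0.234). Of the genes through which reelin signals, only the receptor gene Vldlr was tested, since Lrp8 and Dab1 had at most 4 and 12 counts per mouse. Vldlr had 320 ± 65.5 normalized counts in WT and 111 ± 63.7 in MøFoxO1-KO livers (SD, n = 4 each; -1.53 log2 units, edgeR, Benjamini-Hochberg adjusted P = 0.102). Its ligand gene Reln had overlapping values in both genotypes. The paper discusses VLDLR as a receptor that takes up triglyceride-rich lipoproteins. Which liver cells hold the Vldlr transcript, and any link to reelin, was not tested.

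Markers of the other cell types were measured beside these results. Portal fibroblast markers had 6 of 7 genes tested, 1 higher and 5 lower (median log2 fold change -0.63), the 5 mesothelial markers were all lower (-0.59), as were the 5 cholangiocyte markers tested of 6 (-0.23). All 7 endothelial markers were higher (0.24), as were 6 of 7 macrophage markers (0.69). Single mice moved several of these medians: the macrophage median was 0.23 without MøFoxO1-KO replicate 29, the endothelial one 0.060 without WT replicate 23, and the mesothelial one ran from -1.76 without MøFoxO1-KO replicate 29 to -0.063 without WT replicate 25. Of the macrophage markers, Cd5l and Adgre1 had an unadjusted P under 0.05. Hepatocyte markers were higher for 6 of 7 genes (0.19, ranging from 0.095 without WT replicate 24 to 0.35 without WT replicate 23). No marker of these lists was called. Serpina1c, at a log2 fold change of 1.49, had an adjusted P of 0.037 and Apoa1, at 1.07, one of 0.0765 (edgeR, Benjamini-Hochberg). Summed hepatocyte markers ran from 1195860 to 1639590 normalized counts in WT livers and from 1423540 to 2038150 in MøFoxO1-KO livers. The part of these shifts in the stellate values was not tested.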

How the data were processed

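Livers of 4 male MøFoxO1-KO mice and 4 WT littermates fed the NASH diet were sequenced as polyadenylated RNA (NEBNext Ultra kit). The authors deposited raw read counts per Ensembl gene, without normalization; the submitters' processing notes name STAR, featureCounts and mm10, and versions, strand setting and multi-mapping reads are not given in the sources used here. Symbols came from GENCODE M21 (46005 of 46517 genes; the others held 0.0399% of counts); coordinates are those of the table, and 6 of the 10 genes have the exon model of M21. Total counts, from 15253218 to 18025481, limit the precision for genes with few counts.

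Genes were filtered with filterByExpr (minimum count 10, minimum total 15), scaled by TMM and fitted with edgeR 4.0.16 (quasi-likelihood F test, R 4.3.3, no covariates) over 13278 genes, with Benjamini-Hochberg adjustment. The common biological coefficient of variation was 0.256. Intervals are 95%. Each gene's normalized counts were also compared by an exact permutation test, two-sided (scipy 1.17.1). Correlations used log2 CPM with a prior count of 2. The labels number the 8 liver samples separately, and P values measure the spread between these samples.

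The 10 genes and the lists were chosen with earlier results of these data known; Ctgf was looked up as Ccn2. Genes named are the 10, those of each list with the smallest unadjusted P under 0.05 (at most 4), called genes, defining markers, and the 3 closest genes by correlation; others (Postn, Col5a2, Sparc, Tgfb1, PDGF ligands, Timp1 and genes named for low counts) were chosen after their values were seen. Alternatives were DESeq2 1.42.0, its size factors, upper-quartile factors, no filter, 10 counts in every mouse, limma-voom (limma 3.58.1), the robust option, the adjusted P alone and leaving out each mouse. The permutation test was also run with DESeq2 size factors and with counts divided by raw totals. On simulated counts for 13278 genes with 200 changed by 3 log2 units, edgeR recovered 199 with 6 false calls. The changed genes were drawn from those above a mean-count limit that Acta2 does not reach. Changes as small as those of the 10 genes were not simulated. Values of some list genes are not reported here.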

Additional observations from a re-analysis of the deposited data

Results flagged for a closer look

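In each genotype, the highest and the lowest mouse were examined for their distance from the other 3 for each of the 10 genes, 20 groups in all, and chance alone would mark about 1 in 20 groups. One was marked: Lum in MøFoxO1-KO livers, where replicate 29 had 180.2 normalized counts and replicates 26 to 28 had between 119 and 122, a gap of 0.952 of the whole range. Without that mouse the log2 fold change of Lum was -0.35, compared with -0.18 in all mice.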

How the results depend on the processing

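None of the 10 genes was called under any alternative run (0 in each), while the number of called genes among all tested, 25, became 39 at the adjusted P alone, 174 with DESeq2, 120 without a filter on low counts and 13 with limma-voom, and lay between 3 and 82 when single mice were left out. DESeq2 size factors, upper-quartile factors, the robust option and 10 counts in every mouse kept it within 1.5 times, and the last setting could not be run for Acta2, which had 5 counts in 1 mouse. Over the fits without 1 mouse the log2 fold change crossed 0 for Lrat (from -0.29 to 0.068, the latter with MøFoxO1-KO replicate 27 left out, and 0.02 with WT replicate 22 left out), Des (-0.089 to 0.26), Reln (-0.071 to 0.22) and Vim (-0.32 to 0.25). The negative values of Des, Reln and Vim (-0.13) came from leaving out WT replicate 23, and that of -0.32 for Vim from leaving out MøFoxO1-KO replicate 29. The sign held for the other 6 genes, and under the remaining alternatives in which a fold change was fitted. TMM factors ran from 0.992 to 1.15 in WT and from 0.902 to 1.01 in MøFoxO1-KO livers. With counts divided by raw totals instead, Reln, Des and Vim had lower means in MøFoxO1-KO livers, while Acta2, Tagln and Dcn stayed higher. The positive signs of Reln, Des and Vim therefore depend on the scaling. On raw totals the exact permutation P values ran from 0.0857 (Pdgfrb) to 0.971 (Dcn). The smallest adjusted P of any of the 10 genes over the alternatives was 0.28, for Pdgfrb (Benjamini-Hochberg). No paired analysis was possible because the groups share no replicate number. Depth limits Acta2 most, with 5 to 40 counts per mouse.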

Other observations

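Ratios of Pdgfrb to Reln and to Dcn were chosen after the values were seen and are given without a test. Per kilobase of exon, Pdgfrb stood to Reln between 0.985 and 1.51 in WT livers and between 0.536 and 0.990 in MøFoxO1-KO livers, with MøFoxO1-KO replicate 28 alone (0.990) above the lowest WT mouse, replicate 25 (0.985). Against Dcn the ratio was 0.0267 ± 0.00422 in WT and 0.0161 ± 0.00527 in MøFoxO1-KO livers (SD, n = 4 each). The ratio of Col1a1 to Dcn, a fibrillar collagen set against a proteoglycan that binds it, was not planned either and is also given without a test. It was 0.0354 ± 0.0135 in WT and 0.0117 ± 0.00634 in MøFoxO1-KO livers (SD, n = 4 each), with MøFoxO1-KO replicate 28 (0.0194) above WT replicate 25 (0.0176). Its direction follows from the log2 fold changes of Col1a1 (-1.28) and Dcn (0.19) and is no separate result.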
